A study of Mus musculus with 28 samples.

Results

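The response of the mouse testis to calorie restriction (CR) at 6 months of age was measured on 4 microarrays, chosen as the arrays whose titles give testis and 6 months, out of 28 in the series. Of these arrays, 2 carried RNA of males fed ad libitum (AL) and 2 carried RNA of males on CR, and each array held the entire testis of 1 animal. The study compared age, diet and organ in gonads of C57BL/6 mice, with 14 testis arrays in all, from AL animals of 1 month and from AL and CR animals of 6, 16 and 24 months. The males compared here ate ad libitum until 14 weeks of age and were then kept on AL or stepped down to CR, housed singly, and CR mice were left unfed on the day of dissection, which ended before noon. The AL animals were aged 5 months 24 days (replicate 1) and 6 months (replicate 2), and the CR animals 5 months 27 days (replicate 1) and 6 months 6 days (replicate 2). Testis RNA carried the green dye Cy3, and Universal Mouse Reference RNA, a pool from 11 cell lines, carried the red dye Cy5. Each value below is a log2 ratio of testis to reference, so that a value of a gene can be set against the same gene in another animal but not against another gene. The 4 arrays were of 1 design and were read by the scanner software on the same day, with a median Cy3 signal 1.51 to 1.68 times the background and with 98.9% to 99.6% of probes well above it. The RNA had the marks of testis on each array: Sycp1, a protein of the synaptonemal complex that holds paired meiotic chromosomes together, was at 5.44 and 5.48 in AL and at 5.46 and 5.16 in CR, and the sperm protamine Prm1 was so bright that its spot was saturated on all 4 arrays.

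In the CR testes at 6 months, genes for making testosterone from cholesterol (Star, Cyp11a1 and Cyp17a1) stood at lower values than in the AL testes, close to 2-fold lower for each, and the macrophage chemokine Ccl8 and sterol enzymes such as Dhcr7, Tm7sf2 and Sc5d were lower too. The DNA repair genes Msh3, Terf2 and Fancd2 and the spermatocyte transcription factor Mybl1 stood at higher values in both CR testes than in both AL testes, while genes of elongating spermatids, such as Smcp, were more often lower. These differences of single genes did not pass the adjusted test. For Msh3, Terf2 and Mybl1 the AL animals lay further from the middle of the testes of other ages than the CR animals. Of 38984 genes tested with limma, 2 (0.00513%) were called, meaning that the false discovery rate (FDR) did not exceed 0.1 and the groups were 1.5-fold or more apart, and neither has a gene name here. By the unadjusted rule (p under 0.05 and at least 1.5-fold), 65 genes (0.167%) were higher under CR and 74 (0.19%) lower, of which 37 and 32 have names. At an unadjusted p under 0.05 with no minimum of size, 2106 genes (5.4%) were higher and 1604 (4.11%) lower, and both CR animals lay above both AL animals for 7609 genes (19.5%) and below them for 6403 (16.4%). The number of arrays limits the precision, and an exact permutation test of 2 against 2 animals cannot give a p below 0.33.

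The counts rested on single animals. Without AL replicate 1, 342 genes were called and 794 passed the unadjusted rule (138 higher and 656 lower), and without AL replicate 2 the numbers were 5 and 224 (130 higher and 94 lower). Leaving out CR replicate 1 gave 4 and 248 (78 and 170), and leaving out CR replicate 2 gave 2 and 156 (108 and 48), so that the near even split of higher and lower genes was not stable. The remaining 10 testis arrays enter these counts only through the error, and the number called was 4 without either AL array of 1 month and 1 without either array of AL at 24 months, CR at 16 months or CR at 24 months. With the error taken from the 4 arrays alone, or from the testis arrays read on the same day, 0 genes were called by limma. With the error variance held at or above a moving average 35 were called. That setting also took p from the normal distribution in place of the t distribution of limma, so that variance and distribution cannot be told apart there. The unadjusted rule gave 347, 243 and 341 genes with the signals as processed by the scanner software, with the deposited values and with the Cy3 channel alone, against 139 in the fit reported here, and 71 (24 higher and 47 lower) when genes with an opposite difference at another age were left out. The 2 AL animals of 6 months differed from each other more than the animals of any other testis group did, with an SD of the difference over genes of 0.237 against 0.154 for the 2 CR animals, and 4.19% of genes were more than 1.5-fold apart in the AL pair against 0.569% in the CR pair. The values of each animal are therefore given for the genes described below.

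The probe that rose, Z00042830-1, was at 1.21 and 1.26 in the AL testes and at 2.43 and 2.21 in the CR testes. Both CR animals stood above both AL animals, and each pair was close together. The rise was 1.09 ± 0.08 on the log2 scale (SE), or 2.13-fold, with an adjusted p of 0.00634, and it was 0.98 to 1.20 when each of the 4 arrays was left out. The probe that fell, Z00048400-1, was at 2.93 and 2.95 in AL and at 2.34 and 2.32 in CR. Here both CR animals were below both AL animals. The fall was −0.61 ± 0.06, with an adjusted p of 0.0474, and it was −0.62 to −0.60 with single arrays left out. This call was less firm than the other: the probe was at −0.51 with the signals as processed by the scanner software, under the 1.5-fold minimum, and was no longer called with Cy3 alone, with an intensity trend, without AL replicate 2 or either CR array of 6 months, or without any array of CR at 16 months or of 24 months. Across the other 10 testis arrays the first probe ran from 1.25 to 2.96 and the second from 2.30 to 2.77, so that the AL animals of 6 months were at the low end for the first and above the range for the second. At 24 months the first probe was also higher in the CR arrays, by 1.60, and at 16 months by 0.01, so that higher values were not limited to 6 months. The second probe differed by 0.03 at 24 months and by 0.16 at 16 months. At those ages the CR arrays were read on another day than the AL arrays, so that reading day and diet cannot be told apart there. Both probes were higher in testis than in ovary by more than 2-fold.

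Leydig cells lie between the seminiferous tubules and make testosterone in response to luteinizing hormone. Cholesterol is carried into their mitochondria, cut to pregnenolone, and turned into androgen by enzymes of the endoplasmic reticulum; in rodents, fasting and low food intake are known to lower luteinizing hormone and testosterone. Since the RNA came from whole testis, fewer cells of a type and less RNA per cell cannot be told apart. Of 23 genes listed for steroid synthesis 21 were measured, and 18 of them had a lower mean under CR. Both CR animals were below both AL animals for 8 of the 21 and above them for 2 (38.1% and 9.52%, against 16.4% and 19.5% of all genes), and 6 had an unadjusted p under 0.05, all of them lower in CR (28.6% against 4.11%). The median over the list was −0.21, against 0.00 over all genes tested. It was −0.25 with the signals as processed by the scanner software and with the deposited values, and −0.33 in the Cy3 channel alone.

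The receptor that starts the pathway, Lhcgr, was at 0.18 and 0.28 in the AL testes and at 0.01 and −0.04 in the CR testes. The groups did not overlap, and the difference was −0.25 ± 0.07 (adjusted p = 0.359). This dim probe gave a larger difference, −0.86, with the signals as processed by the scanner software. Scarb1, the receptor that takes up cholesterol esters from high density lipoprotein, was at 1.49 and 1.97 in AL and at 1.25 and 1.37 in CR. Both CR values were below both AL values, with AL replicate 2 the highest, and the difference was −0.42 ± 0.12 (adjusted p = 0.347), or −0.18 without AL replicate 2. A second probe of Scarb1 gave −0.02 ± 0.06, with overlapping groups. Star, which moves cholesterol to the inner mitochondrial membrane, was at 2.86 and 3.66 in AL and at 1.88 and 2.55 in CR. Again no CR animal reached an AL animal, although the gap between CR replicate 2 and AL replicate 1 was smaller than that within either group. The difference was −1.04 ± 0.33, or 2.06-fold lower in CR (adjusted p = 0.382).

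Cyp11a1, the enzyme that cuts the side chain of cholesterol, was at 1.56 and 2.46 in AL and at 0.67 and 1.05 in CR. Cyp17a1, which makes the androgen precursors, was at 2.96 and 3.64 in AL and at 2.19 and 2.42 in CR. In both genes the CR pair was below the AL pair and AL replicate 2 stood highest. The differences were −1.15 ± 0.29 for Cyp11a1 (adjusted p = 0.312) and −1.0 ± 0.23 for Cyp17a1 (adjusted p = 0.282), and a second probe of Cyp17a1 gave −0.92 ± 0.36. Mrap, an accessory protein of melanocortin receptors that is best known from the adrenal cortex and fat, was at 1.79 and 2.74 in AL and at 1.09 and 1.40 in CR. It lies outside the list of steroid genes and was named as one of the largest differences, −1.02 ± 0.33 (adjusted p = 0.397), which was −0.54 without AL replicate 2 and −1.50 without AL replicate 1. Hsd3b6, the 3β-hydroxysteroid dehydrogenase of adult Leydig cells, was at 2.60 and 2.75 in AL and at 2.52 and 2.40 in CR, a difference of −0.21 ± 0.07. The androgen enzyme Hsd17b3 did not separate the groups, at 0.94 and 1.66 in AL and at 1.07 and 0.98 in CR, and neither did the transcription factor Nr5a1, at 0.06 and 0.34 against 0.17 and 0.15. Srd5a1 and Cyp19a1, which turn testosterone into dihydrotestosterone and estradiol, were the genes with both CR animals higher, by 0.15 and 0.06.

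The other testes place these values. Over the 10 testis arrays of other ages, AL and CR, Star ran from 2.42 to 3.08, Cyp11a1 from 0.85 to 1.78 and Cyp17a1 from 2.49 to 3.51. For all 3 genes AL replicate 2 was the highest of the 14 testes and CR replicate 1 the lowest, while AL replicate 1 lay within the range of the other ages. AL replicate 2 was the highest of the 4 animals for 17 of the 21 steroid genes. Without AL replicate 2 the median of the list was −0.04, and without AL replicate 1 it was −0.36. Star differed by −0.64 without AL replicate 2 and by −1.44 without AL replicate 1, Cyp11a1 by −0.69 and −1.60, and Cyp17a1 by −0.65 and −1.34, so that the direction of these 3 genes did not depend on either AL animal while the size did. Why the 2 AL animals differed was not tested.

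**Figure D1:**
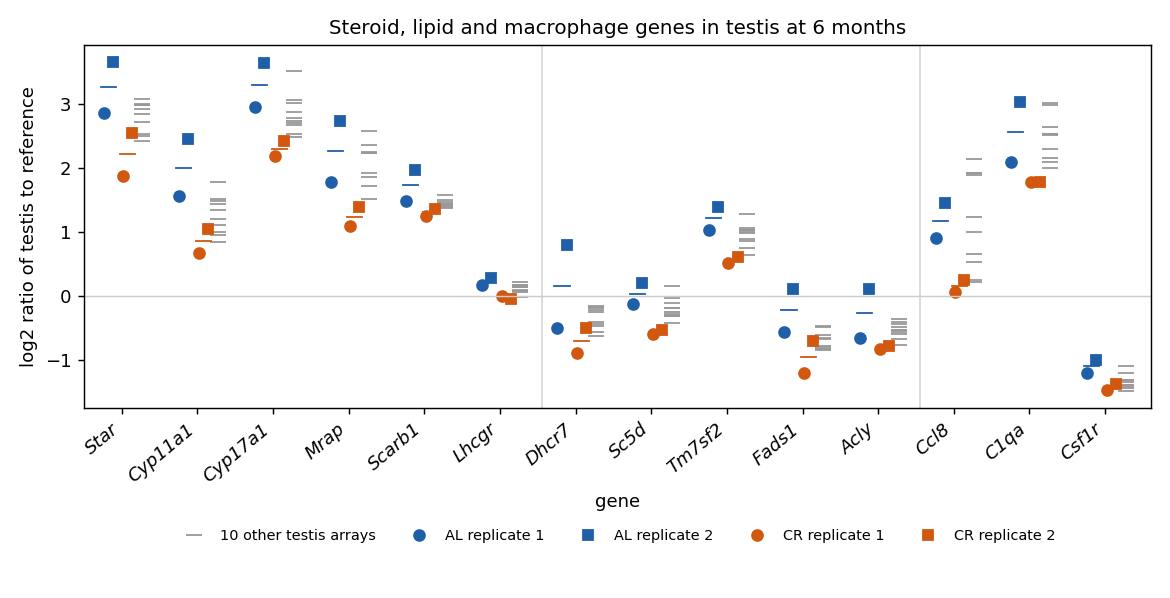
Values of 14 genes in single testes, as log2 ratio of testis to reference. Blue marks are the 2 AL animals and orange marks the 2 CR animals of 6 months (circles, replicate 1; squares, replicate 2), short coloured lines are the group means, and grey lines are the 10 testes of other ages; from left to right the genes belong to steroid synthesis (Star to Lhcgr, with Mrap), lipid and sterol synthesis (Dhcr7 to Acly) and macrophages (Ccl8 to Csf1r). AL replicate 2 is the highest of the 4 in each gene shown, and for Star it is at 3.66 against 1.88 and 2.55 in CR.

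Leydig cells cover part of their need for cholesterol by making it from acetyl-CoA, and the genes for this pathway are switched on together by the transcription factor SREBP2 when sterols run low. Of 30 genes listed for the synthesis and uptake of cholesterol, 22 were measured. Both CR animals were below both AL animals for 9 and above them for 1 (40.9% and 4.55%, against 16.4% and 19.5% of all genes), and at an unadjusted p under 0.05 there were 5 lower and 1 higher (22.7% and 4.55%, against 4.11% and 5.4%). The median difference was −0.12, with −0.01 without AL replicate 2 and −0.25 without AL replicate 1. It was −0.11 with the signals as processed by the scanner software, −0.17 with the deposited values and −0.19 in the Cy3 channel alone.

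Tm7sf2, a sterol reductase of the endoplasmic reticulum and nuclear envelope, was at 1.04 and 1.40 in the AL testes and at 0.52 and 0.61 in the CR testes. Sc5d, which introduces a double bond late in the pathway, was at −0.12 and 0.20 in AL and at −0.59 and −0.53 in CR. In both genes the CR animals were close together and clearly under the AL pair. The differences were −0.65 ± 0.13 for Tm7sf2 (adjusted p = 0.262) and −0.60 ± 0.12 for Sc5d (adjusted p = 0.264), and without AL replicate 2 they were −0.47 and −0.44. Dhcr7, the reductase of the last step, was at −0.49 and 0.80 in AL and at −0.89 and −0.49 in CR. AL replicate 2 alone stood apart here, and AL replicate 1 was level with CR replicate 2, so that the difference of −0.85 ± 0.33 (adjusted p = 0.477) shrank to −0.20 without AL replicate 2. Insig2, which holds the sterol sensor in the endoplasmic reticulum, went the other way, at −0.79 and −0.83 in AL and at −0.32 and −0.40 in CR. Both CR values were higher, by 0.44 ± 0.11 (adjusted p = 0.312), and a second probe gave 0.55 ± 0.09. Squalene epoxidase, Sqle, was at 1.08 and 1.02 in AL and at 1.11 and 1.04 in CR, with overlapping groups.

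Among 16 measured genes of 19 for fatty acid and triglyceride synthesis the median was −0.13, with 2 lower and 0 higher at an unadjusted p under 0.05 (12.5% lower, against 4.11% of all genes), and it was 0.05 without AL replicate 2. Fads1, the delta-5 desaturase of polyunsaturated fatty acids, was at −0.55 and 0.11 in AL and at −1.20 and −0.70 in CR. Acly, which makes cytosolic acetyl-CoA from citrate, was at −0.65 and 0.12 in AL and at −0.82 and −0.77 in CR. Neither gene had a CR animal as high as an AL animal, and in both the highest value was that of AL replicate 2. The differences were −0.73 ± 0.21 for Fads1 (adjusted p = 0.342) and −0.53 ± 0.20 for Acly (adjusted p = 0.466), and without AL replicate 2 they were −0.40 and −0.14. Fatty acid synthase, Fasn, did not separate the groups, at −0.92 and −0.80 in AL and at −1.15 and −0.90 in CR.

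Because genes of both pathways differed in the same direction, their promoters were read for 4 short motifs in the 250 bases before the start of transcription, on both strands: the core element of nuclear receptors, AGGTCA or TGACCT, which NR5A1 binds in an extended form; the CCAAT box, CCAAT or ATTGG, bound by the factor NF-Y that works beside SREBP2; the TATA box, TATAAA or TTTATA; and a sterol regulatory element, TCACCCCAC or GTGGGGTGA. The sequences are those of RefSeq on build GRCm38.p6, and for a gene with several starts the last one in the direction of transcription was taken. Promoters were matched for 18 of 23 steroid genes and 20 of 30 cholesterol genes. The core element was in 3 of the 18 (16.7%) and 3 of the 20 (15%), against 14% of all 32851 promoters. The CCAAT box was in 16 of the 20 cholesterol genes (80%) and in 5 of the 18 steroid genes (27.8%), against 33.8% of all promoters. The TATA box was in 2 of the 18 (11.1%) and 2 of the 20 (10%) against 12.4%, and the sterol element in 0 of the 18 and in 1 of the 20 (5%) against 0.496%. Taken with the same single start per gene, the shares over 27025 genes were 14%, 34%, 13% and 0.463%. A match is a run of letters and was not tested as a binding site. Shown are the windows of Cyp11a1 (chr9:58014702-58014951, plus strand) and Lhcgr (chr17:88792015-88792264, minus strand) as steroid genes that hold the core element, and of Dhcr7 (chr7:143829964-143830213, plus strand), Sc5d (chr9:42264301-42264550, minus strand) and Tm7sf2 (chr19:6067851-6068100, minus strand) as the sterol enzymes with the lowest values under CR, each written 5′ to 3′ with the matches in capitals.
Cyp11a1: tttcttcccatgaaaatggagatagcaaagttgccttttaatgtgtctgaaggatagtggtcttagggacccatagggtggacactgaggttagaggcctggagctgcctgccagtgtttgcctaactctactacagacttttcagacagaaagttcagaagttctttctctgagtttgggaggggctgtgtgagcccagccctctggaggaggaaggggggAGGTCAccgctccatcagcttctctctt
Lhcgr: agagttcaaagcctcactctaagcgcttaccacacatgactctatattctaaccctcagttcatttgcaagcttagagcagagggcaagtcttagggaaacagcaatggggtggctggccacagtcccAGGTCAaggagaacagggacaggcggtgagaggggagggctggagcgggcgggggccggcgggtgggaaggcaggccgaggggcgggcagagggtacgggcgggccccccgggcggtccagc
Dhcr7: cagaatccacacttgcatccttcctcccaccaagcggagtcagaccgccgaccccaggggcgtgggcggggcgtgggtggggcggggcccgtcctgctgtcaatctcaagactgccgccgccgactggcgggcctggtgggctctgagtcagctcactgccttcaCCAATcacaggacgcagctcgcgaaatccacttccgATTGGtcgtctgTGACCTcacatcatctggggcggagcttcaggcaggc
Sc5d: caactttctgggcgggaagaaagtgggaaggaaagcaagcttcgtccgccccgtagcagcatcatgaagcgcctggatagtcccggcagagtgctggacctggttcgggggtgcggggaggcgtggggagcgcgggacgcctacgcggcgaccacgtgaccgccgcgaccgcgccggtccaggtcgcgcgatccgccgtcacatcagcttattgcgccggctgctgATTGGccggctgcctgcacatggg
Tm7sf2: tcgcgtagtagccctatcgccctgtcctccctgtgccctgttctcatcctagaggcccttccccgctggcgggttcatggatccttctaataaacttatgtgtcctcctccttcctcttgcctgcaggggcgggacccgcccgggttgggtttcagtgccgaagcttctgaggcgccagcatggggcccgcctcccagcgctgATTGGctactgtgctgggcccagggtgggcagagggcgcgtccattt
The window of Dhcr7 holds the CCAAT box on each strand and the core element, whereas Sc5d and Tm7sf2 each hold the CCAAT box once, read on the opposite strand. The promoters of Star, Cyp17a1, Mrap, Scarb1 and Fads1 were not analysed here.

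Macrophages make up a large share of the cells between the tubules, where they touch Leydig cells. Of 28 macrophage and myeloid markers 27 were measured, and both CR animals were below both AL animals for 12 and above them for 4 (44.4% and 14.8%, against 16.4% and 19.5% of all genes). At an unadjusted p under 0.05, 7 were lower and 2 higher under CR (25.9% and 7.41%, against 4.11% and 5.4%). The median of −0.09 was below 0 with each array left out (−0.12 to −0.03). It was −0.13 with the signals as processed by the scanner software and in the Cy3 channel alone, and −0.15 with the deposited values. Ccl8, a chemokine of resident macrophages, was at 0.91 and 1.45 in AL and at 0.06 and 0.25 in CR. The study names Ccl8 among immune genes lowered by CR in testis, from data that include these arrays, so that its direction adds no evidence of its own. Csf1r, the receptor macrophages need to survive, was at −1.19 and −0.99 in AL and at −1.46 and −1.37 in CR. Both genes had the CR animals under the AL animals without overlap. The difference of Ccl8 was −1.03 ± 0.23 (adjusted p = 0.282), and that of Csf1r −0.33 ± 0.08 (adjusted p = 0.29). C1qa, a chain of the first component of complement, was at 2.1 and 3.03 in AL and at 1.79 and 1.78 in CR, so that most of its difference of −0.78 ± 0.26 came with AL replicate 2 (−0.32 without it). Several markers went against this. Ptprc, the leukocyte antigen CD45, was at −2.79 and −2.86 in AL and at −2.59 and −2.56 in CR, although in the Cy3 channel alone its difference was −0.06 in place of 0.25, and Fcgr3, a receptor for immunoglobulin G, was at 2.41 and 2.14 in AL and at 2.42 and 2.61 in CR. Of the general macrophage markers, Cd68 was lower in both CR animals by −0.09, the median of the list, and Adgre1 differed by 0.04 with overlapping groups. Ccl8 in testes of other ages ran from 0.22 to 2.15, so that the AL values were within that range and CR replicate 1 was the lowest of the 14 testes.

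Other genes with large lower values included Retnla, a secreted protein of alternatively activated macrophages and fat, at 1.21 and 1.48 in AL and at 0.21 and 0.21 in CR. Tmem37, a membrane protein, was at 0.41 and 0.21 in AL and at −0.85 and −0.75 in CR. For both, the animals of a group were alike and the groups were far apart, yet the other testes covered nearly the same ground, from −0.02 to 1.38 and from −1.05 to 0.59. The SE of these genes, which rests on the spread between animals within all testis groups, was 0.36 and 0.35, with adjusted p of 0.388 and 0.382. Olfml3, an extracellular matrix protein, was at −1.42 and −0.62 in AL and at −1.88 and −1.91 in CR, with a difference of −0.48 without AL replicate 2; both CR values and that of AL replicate 1 were below the lowest of the other 10 testes, −1.35. The defensins Defa3 and Defcr14, antimicrobial peptides with closely related sequences that probes may not tell apart, were at 1.74 and 2.94 and at 1.80 and 3.00 in AL, against 1.18 and 1.12 and 1.35 and 1.11 in CR, and differed by −0.59 and −0.57 without AL replicate 2. H2bc4, a histone gene, had no value on the array of CR replicate 1, and was at 0.43 and 1.18 in AL and at −0.18 in CR replicate 2.

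Fat cells were followed because the fat of the epididymis lies against the testis. Over the 12 fat cell markers, all of them measured, the median was −0.22, with 2 lower and 0 higher at an unadjusted p under 0.05 (16.7% lower, against 4.11% of all genes). AL replicate 2 was the highest of the 4 animals for 10 of the 12, and without it the median was 0.00. The median log2 ratio of the 12 markers was 0.39 and 1.14 in AL and 0.26 and 0.49 in CR. Adipoq, the hormone adiponectin and the member highest relative to the reference, was at 3.32 and 3.78 in AL and at 3.29 and 3.03 in CR (−0.40, and −0.17 without AL replicate 2), and each of the 12 markers was well above background on all 4 arrays. Fabp4, the fatty acid carrier of fat cells, was at 0.61 and 2.50 in AL and at −0.20 and 0.62 in CR. Plin1, the coat of lipid droplets, was at 0.26 and 1.03 in AL and at 0.38 and 0.26 in CR. Both genes had AL replicate 2 apart from the other 3 animals, in which the groups overlapped. These markers were thus highest in the same animal in which the steroid, sterol and lipid genes were highest, and their part in those results was not tested.

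Sertoli cells, which nurse the germ cells within the tubules, gave a similar picture across animals. Of 28 markers 26 were measured, with a median of −0.07, and at an unadjusted p under 0.05 there were 2 higher and 2 lower (7.69% each, against 5.4% and 4.11% of all genes). AL replicate 2 was the highest of the 4 for 22 of the 26, and the median was 0.09 without it and −0.38 without AL replicate 1. Sox9, a transcription factor that makes and keeps Sertoli cells, was at −0.50 and 0.34 in AL and at −0.26 and −0.23 in CR, so that the AL animals lay on either side of the CR pair, and a second probe gave −0.01 ± 0.06. Clu, a secreted chaperone, was at 3.43 and 3.99 in AL and at 3.61 and 3.54 in CR, with the AL animals again on either side. Amh, the anti-Müllerian hormone, was different: it was at 0.58 and 0.49 in AL and at 0.88 and 0.98 in CR. Here the AL animals were alike and both were below both CR animals, by 0.40 ± 0.09 (adjusted p = 0.285), although a second probe gave 0.05 ± 0.07. In the Cy3 channel alone the difference of Amh was 0.14. Espn, an actin bundler of the junctions between Sertoli cells and spermatids, was at 2.88 and 3.47 in AL and at 2.72 and 2.57 in CR, and transferrin, Trf, was at 1.33 and 2.13 in AL and at 0.99 and 1.24 in CR; without AL replicate 2 their differences were −0.23 and −0.22 in place of −0.53 and −0.62. Tsx, a testis gene on the X chromosome, was at 1.10 and 1.52 in AL and at 1.78 and 2.35 in CR with its brighter probe, and at 2.42 and 3.09 against 2.73 and 2.51 with the other, so that its 2 probes disagree.

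Germ cells pass from dividing spermatogonia through a long meiotic prophase as spermatocytes to haploid spermatids, whose nuclei are packed with protamines. Whether genes past the unadjusted rule belong more to testis or to ovary was asked next, which marks the organ and not a cell type. Of the 65 genes past the unadjusted rule with higher values, 52 (80%) were higher in testis than in ovary by more than 2-fold at an FDR of at most 0.1, and 0 were higher in ovary. Of the 74 with lower values 17 (23%) were higher in testis and 24 (32.4%) higher in ovary. Over all 39024 genes tested between the organs, 5746 (14.7%) were higher in testis and 4506 (11.5%) higher in ovary. No reading day held arrays of both organs, so that reading day and organ cannot be told apart in this comparison. Steroid synthesis and macrophages belong to both organs, and 12 of the 21 measured steroid genes and 12 of the 27 macrophage markers were among those higher in ovary.

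Mybl1, the transcription factor A-MYB that drives the gene program of pachytene spermatocytes, was at 1.90 and 1.56 in the AL testes and at 2.68 and 2.63 in the CR testes. Stk25, a kinase of the Golgi and of cell polarity, was at 0.92 and 1.57 in AL and at 2.36 and 2.11 in CR. In both genes each CR animal was above each AL animal. The difference was 0.92 ± 0.21 for Mybl1, 1.90-fold (adjusted p = 0.282), and 0.99 ± 0.29 for Stk25, 1.98-fold (adjusted p = 0.347). The other testes ran from 1.7 to 2.80 for Mybl1, with a median of 2.59, and from 0.89 to 2.58 for Stk25, with a median of 2.28, so that it was the AL animals of 6 months, not the CR animals, that lay away from the middle of the other ages. Pa2g4, a regulator of cell growth and ribosome assembly, was at −1.01 and −1.19 in AL and at −0.30 and −0.14 in CR. The AL animals were again further from the median of the other testes, −0.46, but CR replicate 2 was near their highest value, −0.09. The difference of Pa2g4 was 0.88 ± 0.16 (adjusted p = 0.234). Dars, the aspartyl-tRNA synthetase, was at −1.09 and −0.62 in AL and at 0.16 and −0.09 in CR with 1 probe, and a second probe gave a difference of 0.88 ± 0.22 beside 0.89 ± 0.29. Kif20b, a kinesin of cell division, was at −0.90 and −1.0 in AL and at −0.11 and −0.23 in CR. Snw1, a splicing factor and coactivator, was at 0.06 and −0.16 in AL and at 0.62 and 0.78 in CR. Both had tight pairs that did not overlap, with differences of 0.78 ± 0.23 and 0.75 ± 0.17. Lca5l, a gene related to a ciliary protein, was at 2.96 and 2.62 in AL and at 3.58 and 3.52 in CR. Kcnip2, a potassium channel subunit, was at 0.71 and 0.77 in AL and at 1.38 and 1.60 in CR. The difference of Kcnip2 was 0.75 ± 0.21 and, for a second probe, 0.44 ± 0.18, but 0.19 in the Cy3 channel alone. The uncharacterised genes 1700104B16Rik, 5830417I10Rik and AI987944 were higher by 0.81, 0.79 and 0.79.

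Germ cells depend on DNA repair, since meiosis begins with programmed breaks. All 54 listed genes of DNA damage response and repair were measured, and 39 had a higher mean under CR. Both CR animals were above both AL animals for 19 and below them for 3 (35.2% and 5.56%, against 19.5% and 16.4% of all genes). At an unadjusted p under 0.05, 6 were higher and 0 lower (11.1% and 0%, against 5.4% and 4.11%). The median was small, 0.05, but was above 0 with each array left out (0.01 to 0.09). With the signals as processed by the scanner software and with the deposited values it was 0.07, and in the Cy3 channel alone 0.12. It was lowest, 0.01, without AL replicate 1, the animal that stood lowest of the 14 testes over this list. Fancd2, the protein that is loaded onto DNA at crosslinks, was at 1.93 and 1.84 in AL and at 2.40 and 2.45 in CR. Both CR values were above the highest of the 10 other testes, 2.39, and the AL values were below the lowest, 2.02. The difference was 0.54 ± 0.07, 1.45-fold, with an adjusted p of 0.133. Msh3, a mismatch repair protein, was at 0.79 and 0.65 in AL and at 1.39 and 1.51 in CR. Terf2, which caps telomeres, was at 0.10 and 0.06 in AL and at 0.70 and 0.58 in CR. Xrcc4, a scaffold of end joining, was at 1.48 and 1.09 in AL and at 1.71 and 1.7 in CR. None of the 3 had overlapping groups, and the differences were 0.73 ± 0.18, 0.56 ± 0.12 and 0.42 ± 0.13, the last 0.22 without AL replicate 2. The other testes ran from 0.75 to 1.56 for Msh3 (median 1.29) and from 0.19 to 0.86 for Terf2 (median 0.55). For Msh3 and Terf2 the AL animals thus lay further from the middle of the other ages than the CR animals. At 16 and 24 months Msh3 differed by −0.19 and −0.39, and Terf2 by −0.32 and −0.40. For Xrcc4 both CR values were above the highest of the other testes, 1.60. The checkpoint kinase Atr was at 2.22 and 2.28 in AL and at 2.63 and 2.42 in CR, and the DNA ligase Lig1 at −1.55 and −1.49 in AL and at −1.40 and −1.27 in CR.

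**Figure D2:**
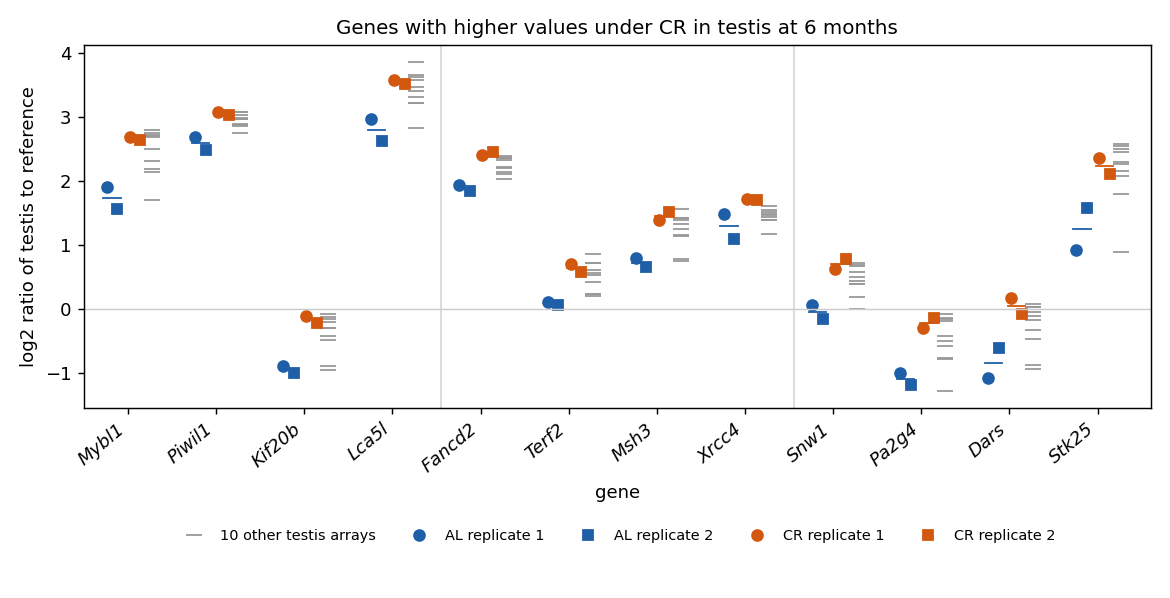
Values of genes with higher values under CR in single testes, as log2 ratio of testis to reference. Blue marks are the 2 AL animals and orange marks the 2 CR animals of 6 months (circles, replicate 1; squares, replicate 2), short coloured lines are the group means, and grey lines are the 10 testes of other ages. Both CR animals lie above both AL animals in the genes shown, for instance Fancd2 at 2.40 and 2.45 against 1.93 and 1.84, while the grey lines of several genes reach over both groups.

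Of the stages of germ cells, elongating spermatids had the lowest median. The 20 measured markers of 25 for spermatogonia had a median of −0.01, the 40 of 43 for spermatocytes 0.02, the 35 of 37 for round spermatids −0.05 and the 30 of 35 for elongating spermatids −0.09. In the Cy3 channel alone the medians of spermatogonia and round spermatids turned to the other sign (0.10 and 0.08), and the spermatocyte median was 0.21. With each of the 4 arrays left out in turn, the medians ran from −0.09 to 0.08 in spermatogonia and from −0.04 to 0.06 in spermatocytes. Those of round spermatids ran from −0.12 to 0.00. At an unadjusted p under 0.05 there were 0 higher and 1 lower in spermatogonia, 4 and 2 in spermatocytes, 0 and 3 in round spermatids and 0 and 5 in elongating spermatids. As shares these were 0% and 5%, 10% and 5%, 0% and 8.57%, and 0% and 16.7%, against 5.4% and 4.11% of all genes. Stra8, which answers to retinoic acid at the entry to meiosis, was at 3.97 and 4.30 in AL and at 3.89 and 3.70 in CR, a difference of −0.34 that was −0.18 without AL replicate 2. Piwil1, the piRNA-binding protein of pachytene spermatocytes and round spermatids, was at 2.69 and 2.48 in AL and at 3.07 and 3.03 in CR. Its relative of fetal and stem germ cells, Piwil4, was at 2.90 and 2.79 in AL and at 2.59 and 2.48 in CR. So Piwil1 was higher in both CR animals, by 0.46 ± 0.11, and Piwil4 lower in both, by −0.31 ± 0.07, each with an adjusted p of 0.282. Smcp, a capsule protein of sperm mitochondria, was at 5.81 and 5.86 in AL and at 5.6 and 5.32 in CR, a difference of −0.38 ± 0.08 (adjusted p = 0.267) that was −0.04 in the Cy3 channel alone. Txndc8, a thioredoxin of spermatids, was at 4.6 and 4.69 in AL and at 4.49 and 4.24 in CR. The elongating spermatid genes had both CR animals below both AL animals for 14 and above them for 5 of 30 (46.7% and 16.7%, against 16.4% and 19.5% of all genes), and AL replicate 2 was the highest of the 4 for 22. Without AL replicate 2 their median was −0.02, and in the Cy3 channel alone −0.03. Genes of sperm ion channels (16 of 21 measured, median 0.02, 0 higher and 2 lower, or 12.5%) and of the flagellar dyneins and cilium (14 of 32, −0.03, 2 higher, or 14.3%, and 0 lower, 0.11 in Cy3 alone) were on neither side. Cnga3, a cyclic nucleotide gated channel, was at 0.69 and 0.80 in AL and at 0.36 and 0.37 in CR, and Ift88, a carrier of ciliary cargo, at 1.82 and 1.71 in AL and at 2.08 and 2.09 in CR.

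Protein turnover and energy genes moved little. Of 36 proteasome subunits 28 had a higher mean under CR, with a median of 0.05 (0.04 to 0.12 with single arrays left out), both CR animals above both AL animals for 12 and below for 1 (33.3% and 2.78%, against 19.5% and 16.4% of all genes), and 3 higher and 0 lower at an unadjusted p under 0.05 (8.33% higher, against 5.4%). Psma8, the subunit of the proteasome of spermatocytes, was at 4.44 and 4.23 in AL and at 4.89 and 4.79 in CR, and Psma4 at 0.10 and −0.04 in AL and at 0.38 and 0.50 in CR. The 68 mitochondrial ribosomal proteins had a median of 0.04, with 44 higher means, and 4 were higher and 0 lower at an unadjusted p under 0.05 (5.88% higher, close to the 5.4% of all genes), among them Mrpl1 at 1.63 and 1.46 in AL and 1.84 and 1.81 in CR. The 68 cytosolic ribosomal proteins had a median of −0.09, with 0 higher and 5 lower (7.35% lower, against 4.11% of all genes), but 51 of them were highest in AL replicate 2, and the median was 0.02 without that animal and 0.01 in the Cy3 channel alone. Rps28 was at −0.02 and 0.08 in AL and at −0.29 and −0.54 in CR with its brighter probe (−0.45 ± 0.10), and at −0.52 and −0.25 against −0.38 and −0.67 with the other, where the groups overlapped (−0.14 ± 0.14). The 69 genes of electron transport and ATP synthesis had a median of −0.02 (0.06 without AL replicate 2) with 2 higher and 4 lower (2.90% and 5.80%), among them Uqcrh, the hinge protein of complex III, at −1.64 and −1.47 in AL and at −2.06 and −2.09 in CR, and on the other side Ndufa9 of complex I, at −0.12 and −0.15 in AL and at 0.06 and 0.10 in CR.

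Nutrient and stress pathways that CR is known to touch in other organs gave small differences. In the insulin and IGF axis (34 of 46 measured, median −0.02, and 0.07 without AL replicate 2) 4 genes were higher and 2 lower at an unadjusted p under 0.05 (11.8% and 5.88%, against 5.4% and 4.11% of all genes). Igf1, which Leydig and Sertoli cells make and which in blood is known to be lowered by CR, was at −0.19 and 0.14 in AL and at −0.38 and −0.39 in CR. Both CR animals were lower, by −0.36 ± 0.11 (adjusted p = 0.368), and by −0.19 without AL replicate 2. Igfals, the acid labile subunit that holds IGF in blood, was at 0.51 and 0.43 in AL and at 0.27 and 0.23 in CR, while Eif4ebp2, a brake on translation, was at −0.36 and −0.29 in AL and at −0.06 and 0.00 in CR. Energy sensors (15 of 20, median 0.02, and −0.02 without replicate 2 of either diet) had 3 higher (20%) and 0 lower: Sirt1, a deacetylase, at 0.94 and 1.06 in AL and 1.45 and 1.20 in CR; Sirt3 of mitochondria, at 1.63 and 1.38 in AL and 1.64 and 1.92 in CR; and Stk11, the kinase upstream of AMPK, at 0.46 and 0.43 in AL and 0.53 and 0.71 in CR. For Sirt3 the lower CR animal and the higher AL animal were all but equal. Fat oxidation and fasting genes (35 of 35, median −0.07, 0.00 without AL replicate 2 and −0.14 without AL replicate 1) had 1 higher, Cpt2, and 2 lower, Acads and Ucp2 (2.86% and 5.71%). Circadian clock genes (20 of 25, median 0.04, below 0 with AL replicate 1 or CR replicate 1 left out, with the deposited values and in Cy3 alone) had 1 higher and 2 lower (5% and 10%), with the ubiquitin protease Usp2 at 4.00 and 3.98 in AL and at 3.81 and 3.73 in CR. Glucocorticoid targets (16 of 18, −0.07, and 0.10 without AL replicate 2) had 0 higher and 0 lower, and Fkbp5, a chaperone of the glucocorticoid receptor that the hormone induces, was at 0.03 and 1.05 in AL and at 0.18 and 0.10 in CR, again with AL replicate 2 apart. Antioxidant enzymes (29 of 31, −0.07, and 0.05 without AL replicate 2) had 1 higher (3.45%) and 0 lower, with Gclm of glutathione synthesis at 0.45 and 0.42 in AL and at 0.59 and 0.65 in CR, and heat shock proteins (35 of 36, −0.01, and 0.14 without it) had 1 higher and 2 lower (2.86% and 5.71%).

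The remaining cell types and processes had medians within 0.05 of that of all genes, but in the Cy3 channel alone those of lymphocyte, interferon response and red blood cell genes were −0.18, −0.13 and −0.24. Lymphocyte markers (12 of 15, median −0.02, 0 higher and 1 lower), interferon response genes (25 of 29, −0.01, 1 and 2), peritubular and smooth muscle markers (8 of 11, −0.03, 0 and 0), endothelial markers (14 of 15, −0.04, 1 and 1), epididymis markers (9 of 14, −0.03, 1 and 0), collagens and matrix proteins (26 of 30, −0.05, 0 and 0) and apoptosis genes (29 of 32, −0.01, 2 and 0) had few members at an unadjusted p under 0.05, at most 11.1% higher (epididymis) and 8.33% lower (lymphocytes), against 5.4% and 4.11% of all genes. Of 10 red blood cell genes 1 was measured, Slc4a1, with a difference of 0.00. B2m, the light chain of class I histocompatibility molecules, was at −2.78 and −2.01 in AL and at −2.93 and −2.90 in CR, a difference of −0.53 that was −0.14 without AL replicate 2. Diablo, which frees caspases from their inhibitors, was at 3.03 and 2.75 in AL and at 3.13 and 3.22 in CR. With each of the 4 arrays left out in turn, the medians of the collagens ran from −0.19 to 0.17 and those of the peritubular markers from −0.17 to 0.17, the ends being AL replicate 1 and AL replicate 2. Without AL replicate 2 the medians of apoptosis, interferon response and endothelial genes also turned sign, to 0.10, 0.08 and 0.04.

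**Figure D3:**
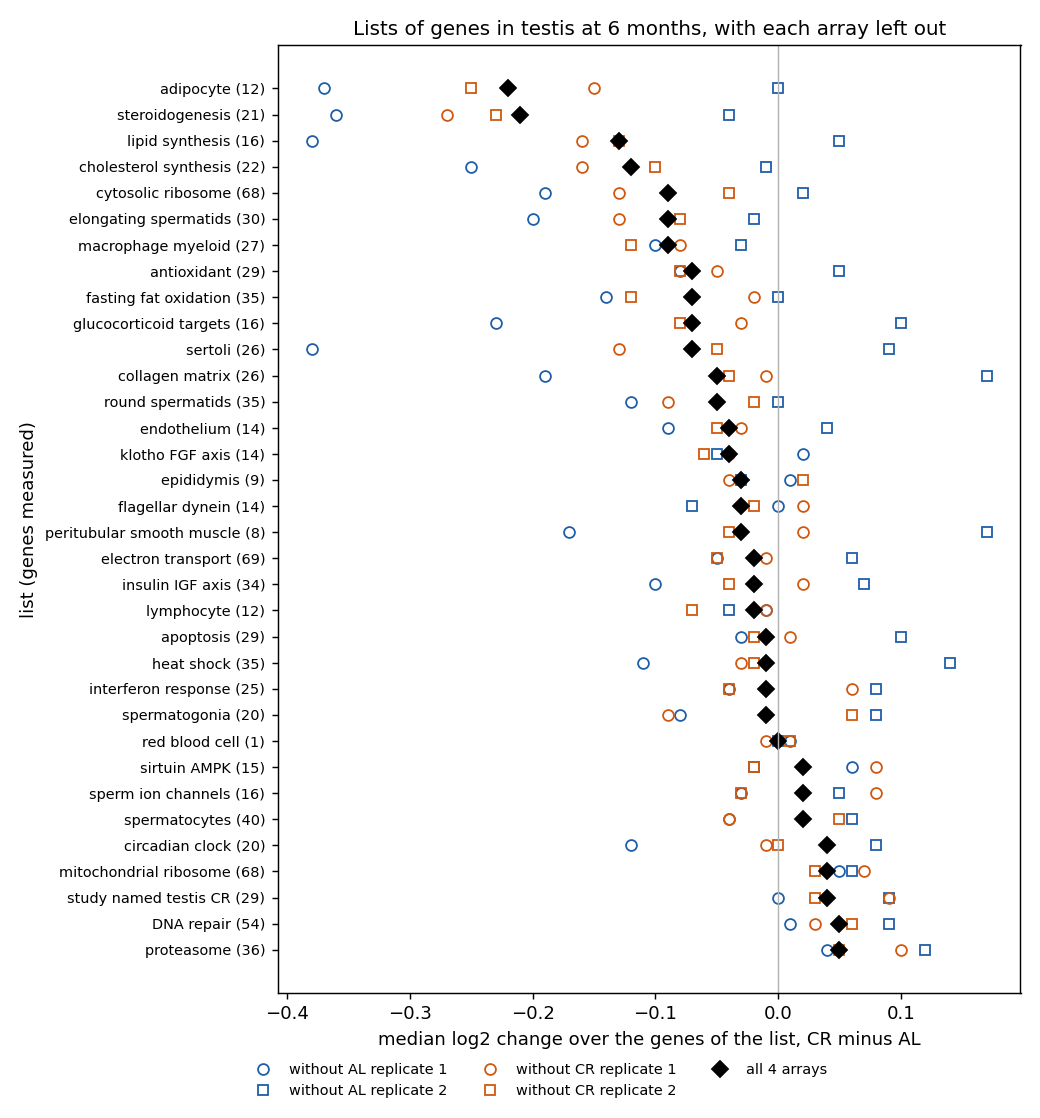
Median log2 difference of CR minus AL over each of 34 lists of genes, with the number measured in brackets. Black diamonds are the medians with all 4 arrays, blue marks those without AL replicate 1 or 2 and orange marks those without CR replicate 1 or 2 (circles, replicate 1; squares, replicate 2). The lists for fat cells (−0.22) and steroid synthesis (−0.21) are lowest, and without AL replicate 2 they are at 0.00 and −0.04.

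Among 32 genes that the text of the study names for CR in testis 29 were measured, with a median of 0.04, 3 higher and 1 lower at an unadjusted p under 0.05 (10.3% and 3.45%, against 5.4% and 4.11% of all genes). These genes were picked in the study from data that include the same 4 arrays, which means that their direction adds no evidence of its own. Apobec4, a member of the cytidine deaminase family expressed in testis, was at 2.55 and 2.99 in AL and at 3.16 and 3.34 in CR. Both CR animals were higher, by 0.48 ± 0.12 (adjusted p = 0.307), and by 0.26 without AL replicate 1. Its differences at 16 and 24 months were 0.36 and 0.50. Kl, the aging suppressor klotho, was at −0.06 and −0.12 in AL and at 0.00 and −0.15 in CR with its brighter probe, and at 0.29 and 0.15 in AL and at 0.52 and 0.55 in CR with the other. So the first probe showed overlapping groups (0.02 ± 0.07) and the second showed higher CR values (0.32 ± 0.09), both probes being dim. The deposited values gave a difference of 1.14, against 0.05 for the brighter probe with the signals as processed by the scanner software. For the deposited values the authors also chose the probe, so that values and probe cannot be told apart. The list of klotho proteins with their ligands and receptors (14 of 17 measured) had a median of −0.04 with 1 higher and 2 lower (7.14% and 14.3%), among them Fgfr3, a receptor of fibroblast growth factors, at 0.82 and 0.80 in AL and at 0.61 and 0.68 in CR, with −0.01 ± 0.07 for a second, dim probe. Nlrp14, a germ cell protein of the NLR family, was at 1.69 and 1.29 in AL and at 1.83 and 1.72 in CR, and Pcsk1, a prohormone convertase, at 1.83 and 1.80 in AL and at 1.64 and 1.68 in CR, with SEs of 0.22 and 0.37 that exceed or nearly reach the differences of 0.28 and −0.16. Nlrp14 differed by 0.62 with the deposited values, by 0.63 with the signals as processed by the scanner software and by 0.09 without AL replicate 2. Pcsk1 turned to 0.25 with the deposited values and with the scanner signals, and its differences at 16 and 24 months were 0.02 and 1.22. The study lists it as activated by CR over the ages combined, which is another comparison than that of 6 months alone.

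The same contrast was set against those at 16 and 24 months to ask whether the response differed with age. By a test of the difference itself at an FDR of at most 0.1, 7 of 38951 genes (0.018%) differed from 16 months and 25 of 38966 (0.0642%) from 24 months. At those ages the CR arrays were read on another day than the AL arrays, so that reading day and diet cannot be told apart there. In place of 25 genes there were 0 when CR replicate 2 of 6 months, either CR array of 16 months or CR replicate 2 of 24 months was left out, 1 and 5 without AL replicate 1 or 2 of 24 months, 5 without either AL array of 16 months and 11 without AL replicate 2 of 6 months. There were 93 without either AL array of 1 month, 122 without AL replicate 1 of 6 months and 1034 without CR replicate 1 of 24 months. In place of 7 genes there were 0 without AL replicate 1 of 6 months, CR replicate 1 of 16 months or any array of 24 months, 1 without replicate 2 of AL or CR at 6 months, 4 without CR replicate 2 of 16 months and 20 without either AL array of 1 month. Pa2g4 differed between CR and AL by 0.88 at 6 months and by −0.37 and −0.86 at 16 and 24 months, and its difference between 6 and 24 months was 1.74 (adjusted p = 0.0882). Topors, a ubiquitin and SUMO ligase, was at 1.14 and 0.98 in AL and at 1.76 and 1.71 in CR at 6 months, a difference of 0.68, against −0.25 and −0.41 at the later ages. Gtpbp4, a GTPase of ribosome assembly, was at −0.45 and −0.38 in AL and at 0.28 and 0.33 in CR, a difference of 0.72, against −0.27 and −0.57. For both the difference between 6 and 24 months passed the test, at 1.08 and 1.29 (adjusted p = 0.0882 and 0.0908). Star, Cyp11a1 and Cyp17a1 differed at 16 months by −0.09, 0.13 and −0.13 and at 24 months by −0.06, 0.33 and 0.29; the test of the difference against 16 and 24 months gave adjusted p of 0.688 and 0.399 for Star, 0.530 and 0.212 for Cyp11a1 and 0.587 and 0.189 for Cyp17a1, none of which passed. The 65 genes with higher values at 6 months had median differences of −0.14 and −0.31 at 16 and 24 months, and the 74 with lower values −0.26 and 0.02. The contrasts share the error estimate but no animals.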

How the data were processed

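The deposited scanner files hold spot intensities that, per the file headers, were read from the images with Agilent Feature Extraction A.7.5.1. Mean spot signals were corrected for the median local background with normexp (offset 50) and scaled by loess within each array; control spots and spots with an outlier mark were left out. Each probe gave log2 of green over red. A linear model with 1 mean per group of diet and age was fitted with limma 3.58.1 to the 14 testis arrays, so that the error was pooled over all of them, and p values were adjusted by the method of Benjamini and Hochberg. Programs were R 4.3.3, Python 3.11.15 and the R package data.table (1.17.8). Where several probes carried the same gene name the brightest stood for the gene, and each unnamed probe counted as a gene of its own. The 10 testis arrays of other ages entered the error, the comparisons between ages and the comparison of the organs, and 10 of the 14 testis arrays were read on the day of the 4 compared here.

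Of 42006 probes 38298 had the sequence of a probe on the earlier array version, whose names were taken over, and a supplementary table of the study named others. In all, 17679 probes of 14697 genes were named and 24327 were not. Of 2930 probes named by both routes 2868 (97.9%) had the same gene.

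The table of values as deposited by the authors holds log10 values, with medians of 3.14 to 3.16 in the 14 columns used. Its offset from the log10 ratio of gonad to reference was constant within each row (range under 0.01 for 98% of rows) and followed the mean log10 red signal (r = 1), so that the deposited values are the ratio put back on the scale of the reference signal. Per the authors, their analysis was limited to genes with a symbol, each taken from the oligonucleotide whose signal changed most significantly. The 14 other columns of per-sample values, 8 in the table for the earlier array version and 6 of ovary, were not used for the comparison of diets, and 1 of them holds a placeholder in place of measurements. The organ comparison took the scanner files of the 6 ovary arrays of the same array version, which were read on another day than the testis arrays.

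The members of the comparison and the 34 lists of genes were chosen with earlier results of these data known. Single genes were named by a rule: the called genes with a name (0); the 12 largest differences in each direction among named genes past the unadjusted rule; from each list the first 2 measured members and the 4 with the lowest p; and Kl, Apobec4, Pcsk1 and Nlrp14, named with earlier results known. Not every gene that the rule picks is given in the text. Genes named outside the rule (Hsd3b6, Hsd17b3, Nr5a1, Srd5a1, Cyp19a1, Adgre1, Fcgr3, Fabp4, Clu, Lig1, Topors, Gtpbp4 and the 2 called probes without a name) were chosen after the values were seen.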

Additional observations from a re-analysis of the deposited data

Results flagged for a closer look

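The difference of CR minus AL was not the same at 6 months as at 16 months for 7 genes and not the same as at 24 months for 25 genes, each at an FDR of at most 0.1. For Z00042830-1 the value at 6 months minus that at 16 months was 1.08 on the log2 scale, and for Z00048400-1 it was −0.77. At 24 months Z00042830-1 was higher under CR by 1.60, so that it was higher at both 6 and 24 months and differed by 0.01 at 16 months. Against 24 months, the value was 1.74 for Pa2g4, the regulator of growth and ribosome assembly, and −0.64 for Z00048400-1. The CR arrays of 16 and 24 months were read on another day than the AL arrays of those ages, and the cause of these differences was not tested.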

How the results depend on the processing

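With 2 animals a group, precision is low, single animals decide most counts, and the AL animals differ more than any other testis pair. No paired analysis was possible because the replicate numbers follow the order of deposit and join no animal of AL to one of CR. There were no dye swaps, Cy3 signals were 1.51 to 1.68 times the background, and whole tissue hides the cell of origin. The cause of the differences below was not tested.

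The 2 called genes became 0 with the deposited values (which do not hold these probes), with only the 4 arrays of 6 months and with only the testis arrays of the same extraction day, 1 with the Cy3 channel alone and with an intensity trend in limma, and 35 with the error variance held at or above a moving average and p taken from the normal distribution. Without single arrays they ranged from 1 to 342. The 139 genes past the unadjusted rule became 347 with the signals as processed by the scanner software, 243 with the deposited values, 341 with the Cy3 channel alone and 71 (24 higher and 47 lower) when genes with an opposite difference at another age were left out, and 128 to 794 without single arrays. The genes that differed from 16 months ranged from 0 to 20 without single arrays, and those that differed from 24 months from 0 to 1034. Alternatives added later were chosen after seeing the data.

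Tsx turned to −0.17 with the deposited values, for which the authors also chose the probe, so that values and probe cannot be told apart, and Pcsk1, at an unadjusted p of 0.675, to 0.25 with these and with the scanner signals. In the Cy3 channel alone the following turned sign among the genes with an unadjusted p under 0.05 in the reported fit: Acads 0.14, Adcy10 0.18, Birc5 −0.23, Fgfr3 0.06, Folh1 −0.11, Gclm −0.07, Igfals 0.11, Klf17 0.24, Psmd2 −0.06, Ptprc −0.06, Sox18 0.08 and Zp3r 0.12.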
